A study of Mus musculus with 12 samples.

Results

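The genes described here are Pou5f1, Sox2, Nanog, Utf1 and Prdm14, core genes of the pluripotent state of mouse embryonic stem (ES) cells. The peaks examined are all those in the 12 deposited peak lists whose nearest gene, as the authors annotated it, is one of these genes, at any distance from the transcription start site (TSS). These were 35 of 76731 peaks: 4 of 10124 peaks in the 8 RXR lists and 31 of 66607 peaks in the 4 H3K27ac lists. The 5 genes stand among 14490 genes named as nearest gene of any peak.

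The lists come from chromatin immunoprecipitation and sequencing (ChIP-seq) of wild-type E14 mouse ES cells, grown without feeder cells in medium with serum and leukemia inhibitory factor. RXR, the retinoid X receptor, and H3K27ac, acetylation of histone H3 at lysine 27, were each mapped in 4 conditions: a control (vehicle, dimethylsulfoxide, in the protocol) and 24 h with GW3965, LG268 or RA at 1 µM. GW3965 is an agonist of the liver X receptor (LXR), LG268 is an agonist of RXR itself, and RA is all-trans retinoic acid, the ligand of the retinoic acid receptor (RAR). Further RXR libraries came from day 8 and day 16 of neural differentiation, in which cells form embryoid bodies without leukemia inhibitory factor and receive RA at 5 µM. Each ES condition is 1 library per antibody, and day 8 and day 16 are 2 replicates each, which the labels do not say came from separate cultures. With 1 library per ES condition no test between ES conditions was possible, and the day 8 and day 16 lists held no peak at these genes, so every value below describes these lists.

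Pluripotency is held by a small circuit of transcription factors. POU5F1 (also called OCT4) and SOX2 bind DNA side by side at many ES cell enhancers, including enhancers of their own genes, and NANOG joins them. UTF1 is a chromatin-associated protein whose gene is a classic target of POU5F1 and SOX2, and PRDM14 is a PR-domain protein that keeps ES cells in their naive state. RXR binds DNA as the partner of receptors such as RAR and LXR, at repeats of the half-site AGGTCA. RA is a standard agent to drive ES cells out of pluripotency, and a retinoid response element in the proximal promoter of Pou5f1 is known from earlier work. H3K27ac marks active promoters and enhancers.

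The proximal promoters are shown because the known retinoid element lies there, while no RXR peak did. The sequences are the 250 bases before the TSS from RefSeq (build GRCm38.p6), which held a promoter for 4 of the 5 genes, Prdm14 being the exception. They were searched on both strands for AGGTCA, for AGGTCA direct repeats with 0 to 5 bases between the copies, for the octamer ATGCAAAT bound by POU factors, for the SOX core CATTGT and for TCAAGGTCA, which contains AGGTCA. Capitals mark matches, with TGACCT and ACAATG being AGGTCA and CATTGT on the other strand.
Pou5f1, chr17:35505782-35506031, plus strand: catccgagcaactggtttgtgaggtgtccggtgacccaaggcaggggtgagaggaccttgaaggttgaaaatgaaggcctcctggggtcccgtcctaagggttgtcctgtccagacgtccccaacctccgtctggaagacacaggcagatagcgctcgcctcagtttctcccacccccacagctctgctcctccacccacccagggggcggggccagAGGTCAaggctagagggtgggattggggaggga
Sox2, chr3:34649745-34649994, plus strand: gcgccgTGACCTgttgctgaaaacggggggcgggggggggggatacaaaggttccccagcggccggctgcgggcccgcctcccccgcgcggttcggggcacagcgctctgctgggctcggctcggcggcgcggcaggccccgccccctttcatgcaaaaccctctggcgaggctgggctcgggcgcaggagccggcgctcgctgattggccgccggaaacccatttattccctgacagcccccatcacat
Nanog, chr6:122707239-122707488, plus strand: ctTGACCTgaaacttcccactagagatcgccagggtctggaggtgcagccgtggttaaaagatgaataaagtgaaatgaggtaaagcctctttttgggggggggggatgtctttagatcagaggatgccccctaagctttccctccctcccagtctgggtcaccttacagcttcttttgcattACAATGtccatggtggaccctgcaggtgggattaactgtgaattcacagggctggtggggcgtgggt
The Pou5f1 window held AGGTCA 33 to 28 bases before the TSS. The Sox2 window held it 244 to 239 bases and the Nanog window 248 to 243 bases before the TSS, and Nanog held the SOX core 67 to 62 bases before the TSS. The Utf1 window held none of these motifs. RefSeq gives a second start site for Pou5f1 and for Nanog, so there were 6 windows in all. That of Pou5f1 (TSS at 35508807) held the SOX core 158 to 153 bases upstream, and that of Nanog (TSS at 122707565) held the SOX core already shown, 143 to 138 bases upstream. AGGTCA was found in 14.0% of 32851 promoter windows of this length and CATTGT in 10.7%, so these matches are common. No window of the members held an exact direct repeat, the octamer or TCAAGGTCA. Only exact matches were searched, so elements that differ by a base were not looked for. Among all windows the octamer was found in 1.60%, TCAAGGTCA in 0.387% and each direct repeat in 0.0335% or fewer. Absence from 6 windows therefore says little about these genes. The RXR peak closest to any of these windows lay 1625 bp from the Pou5f1 window, 6012 bp from that of Utf1, 18552 bp from that of Sox2 and 211468 bp from that of Nanog.

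RXR peaks at the 5 genes were found in the GW3965 list and the LG268 list and in no other RXR list. The GW3965 list held a peak at Pou5f1, Utf1 and Prdm14 (3 of 5 members), where 5.99% of all 14490 genes had a peak in that list. The LG268 list held a peak at Sox2 (1 of 5 members), against 12.4% of all genes. No member had a peak in the control list (6.89% of all genes) or the RA list (11.9%). Nor did any member in the day 8 replicates (6.31% and 10.8% of all genes) or the day 16 replicates (2.33% and 2.19%). Nanog had no RXR peak in any of the 8 lists. Across all 8 lists, 4 of 5 members had an RXR peak, against 25.1% of all genes, and without the GW3965 list 1 of 5. A peak in the GW3965 list and in no other RXR list was found for 3 of 5 members and for 2.57% of all genes. A peak in the LG268 list and in no other was found for 1 of 5 members and 3.30% of all genes.

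The GW3965 RXR list, on which 3 of the 4 sites rest, stood apart from the other ES lists. It shared 22.6% of the 1089 control peaks (exact Clopper-Pearson 95% interval 20.1 to 25.2), against 72.5% (69.7 to 75.1) for LG268 and 72.0% (69.2 to 74.6) for RA. The GW3965 list held 940 peaks, against 2089 with LG268 and 1970 with RA. A shorter list can share fewer peaks, and sharing was not computed at equal list length. LTR retrotransposons held 16.4% (14.1 to 18.9) of its 940 peaks, against 2.48% (1.64 to 3.59) in the control. Of its peaks, 56.8% (53.6 to 60.0) had no RXR peak of another list within 10 kb, against 31.3% (29.3 to 33.3) of the 2089 LG268 peaks. The part of these properties in the peaks at Pou5f1, Utf1 and Prdm14 was not tested. Depth is unknown, since the files hold no read totals, and the intervals cover counting error only. Peak numbers absent from a list made up 9.29% to 38.2% of the numbers in the RXR lists, by a step the sources do not describe, so a site without a listed peak may have been removed.

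At Pou5f1, the factor gene at the centre of the circuit, the GW3965 RXR peak lay 1993 bp upstream of the TSS in intergenic sequence (chromosome 17, 35503923 to 35504156, mm10). Its score, a value given by the authors and used here within a list, was 10.7, or rank 160 of 940, against a list median of 6.50. It was 234 bp wide, close to the list median of 225 bp. The Pou5f1 site was thus in the upper part of its list and of ordinary width. In the other lists the nearest RXR peak was 64.1 kb away with LG268 and 64.2 kb away with RA, both at H2-Q9. It was 502.8 kb away in the control and 502.9 and 502.8 kb away in the day 8 replicates, all at Vars, and at least 1724 kb away in the day 16 replicates. No list other than GW3965 thus held a call at a shifted position near this site.

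At Prdm14 the GW3965 RXR peak lay 42083 bp downstream of the TSS and 28.2 kb beyond the end of the gene, which lies on the minus strand (chromosome 1, 13084899 to 13085262, intergenic). It scored 8.68 and ranked 269 of 940. At 364 bp it was the widest of the 4 sites. The nearest RXR peak of another list was an LG268 peak 249.2 kb away, assigned to Sulf1.

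At Utf1 the GW3965 RXR peak lay 6112 bp downstream of the TSS, past the 1257 bp gene (chromosome 7, 139949868 to 139950068, intergenic). With a score of 4.50 and rank 741 of 940 it was in the lower part of the list. The nearest other RXR peaks were at 111.2 kb in day 8 replicate 2, at 113.8 kb with LG268 and at 114.0 kb in the control.

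At Sox2 the LG268 RXR peak lay 18646 bp downstream of the TSS, in intron 4 of 4 of Sox2ot, the noncoding transcript that spans the Sox2 gene (chromosome 3, 34668547 to 34668755). It scored 3.38, against a list median of 6.82, and ranked 1936 of 2089, close to the bottom of the list. The nearest RXR peak of another list lay 87.8 kb farther downstream in the RA list. The Sox2 site was the lowest of the 4 by rank and was not among the 940 highest LG268 peaks, the length of the shortest ES list.

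**Figure D1:**
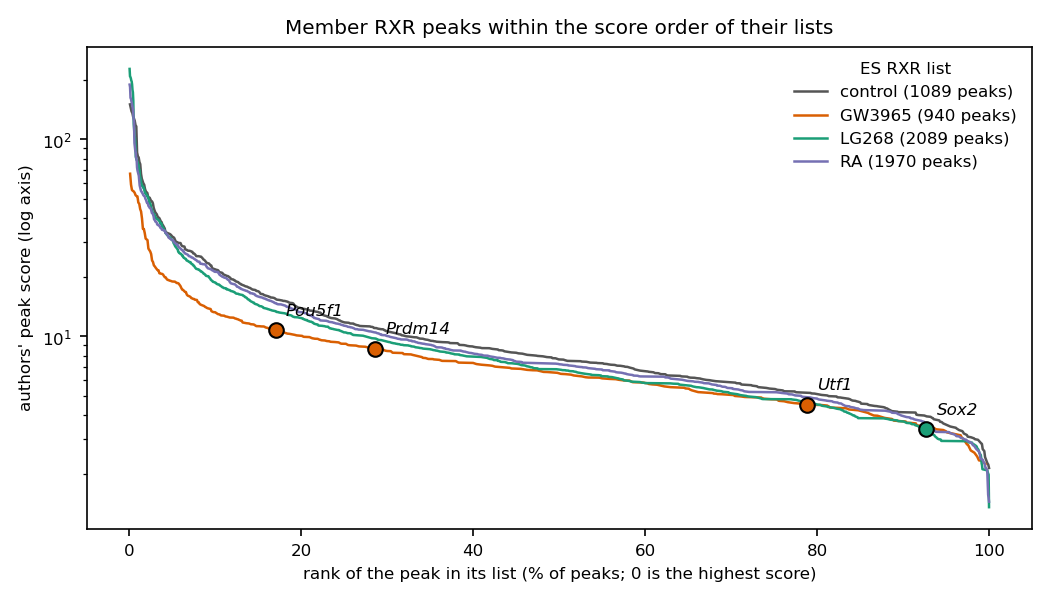
The authors' score (log axis) is plotted against the rank of each peak, in percent of its list, for the 4 ES RXR lists, with the member peaks as points. Pou5f1 (rank 160) and Prdm14 (rank 269) lie in the upper part of the 940 GW3965 peaks, Utf1 (rank 741) in the lower part, and Sox2 (rank 1936 of 2089) near the end of the LG268 list.

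The 4 RXR sites shared a distal position. All lay more than 1 kb from the TSS, as did 89.7% (exact 95% interval 87.6 to 91.6) of GW3965 peaks and 71.5% (69.5 to 73.4) of LG268 peaks. None was annotated in a repeat of any class. Of GW3965 peaks, 90.6% (88.6 to 92.4) lay outside simple repeats, satellites, low-complexity and rRNA elements, as did 91.7% (90.5 to 92.9) of LG268 peaks. These shares still include peaks in other repeats. LTR retrotransposons held 16.4% of GW3965 peaks and 2.58% of LG268 peaks. The 3 GW3965 sites were intergenic, as were 53.0% (49.7 to 56.2) of the peaks of that list. Position was therefore also usual in these lists, while the share of peaks outside every repeat class was not computed.

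H3K27ac peaks were found at Sox2, Nanog and Utf1 in all 4 lists, at Pou5f1 in the control and GW3965 lists, and at Prdm14 in none. Members with a peak numbered 4 of 5 in the control (88.4% of all genes), 4 of 5 with GW3965 (80.7%), 3 of 5 with LG268 (65.3%) and 3 of 5 with RA (72.8%). A peak in all 4 lists was found for 3 of 5 members and for 56.9% of all genes, so these shares were near the background. The pattern of Pou5f1, with peaks in control and GW3965 and none in LG268 and RA, was that of 6.69% of all genes. Its peaks ranked 18508 and 20200 in the control and 17273 with GW3965. With lists of equal length (the 12472 highest peaks) Pou5f1 therefore had no H3K27ac peak in any list. The sequence covered at the members was 4670 bp in the control, 4299 bp with GW3965, 2194 bp with LG268 and 2275 bp with RA. The lists themselves held 21418, 17759, 12472 and 14958 H3K27ac peaks in this order, so list length moved with the covered sequence.

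Merging overlapping peaks of the 4 lists gave 12 H3K27ac regions at the members, of which 10 were called in the control, 8 with GW3965, 5 with LG268 and 7 with RA. With lists of equal length (the 12472 highest peaks of each) these counts were 4, 5, 5 and 4, so the control no longer had the most. Of the 12 regions, 3 were called in all 4 lists (36.2% of all 25396 regions) and 4 in 1 list (34.9% of all regions), or 1 with lists of equal length. The 4 regions of 1 list were control regions 1570 and 470 bp upstream of the Pou5f1 TSS, a GW3965 region 202 bp downstream of it, and a control region 8162 bp downstream of the Nanog TSS. Control-only regions made up 19.0% of all regions and GW3965-only regions 8.89%. No region at the members was called with LG268 alone (2.44% of all regions) or RA alone (4.54%).

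At Pou5f1 all H3K27ac peaks were low in their lists. The control peaks upstream of the TSS scored 3.36 (rank 20200 of 21418; chromosome 17, 35504270 to 35504654) and 4.10 (rank 18508; 35505406 to 35505718). The GW3965 peak, in exon 1 of 5, scored 2.93 (rank 17273 of 17759; 35506107 to 35506361). The 3 peaks did not overlap each other, and the nearest H3K27ac peak to the gene's promoter window was 66.2 kb away with RA and 161.1 kb away with LG268. All 3 thus lay in the last part of their lists.

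At Sox2 regions on both sides of the TSS were called in all 4 lists. The region centred 887 bp upstream scored 7.27 in the control, 8.97 with GW3965, 4.72 with LG268 (the higher of 2 peaks) and 6.42 with RA. The region over the only exon scored 12.2 in the control, 10.2 with GW3965, 5.21 with LG268 and 5.16 with RA. Over the 4 lists the 2 regions lay at 33.4% to 77.1% of their lists. Ranks in lists of different lengths give no order between the conditions.

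Farther downstream, 2 Sox2 regions 14.1 and 14.9 kb from the TSS were called in the control, GW3965 and RA and not with LG268, a pattern of 7.82% of all regions. The first of these (chromosome 3, 34663832 to 34664267) scored 5.65 in the control, 12.2 with GW3965 and 8.12 with RA. It ranked 5647 of 17759 with GW3965 and 14729 of 21418 in the control, which are ranks in lists of different lengths. The other (34664537 to 34665263) scored 6.19 in the control and 3.05 and 3.04 with GW3965 and RA. The LG268 list is the list with the RXR peak at Sox2, 18646 bp from the TSS, at rank 1936 of 2089. It is also the shortest H3K27ac list, with 12472 peaks. The first region ranked 14729 in the control, 5647 with GW3965 and 7122 with RA, and the other 13775, 17132 and 14484. A link between the missing calls and the RXR peak was not tested.

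At Nanog no H3K27ac peak lay at the promoter in any list. The region about 4.6 kb upstream (chromosome 6, 122702680 to 122703170) was called in the control, GW3965 and LG268 with scores of 10.04, 8.69 and 8.73. These are ranks 8801 of 21418, 8289 of 17759 and 4961 of 12472, all in the upper part of the list. With RA the only peak lay beside it, 5118 bp upstream of the TSS (122702333 to 122702567), with a score of 4.00 and rank 13190 of 14958. A GW3965 peak of low score (2.52) overlapped the RA peak, and a control peak 8162 bp downstream scored 2.73. Nanog therefore had upstream H3K27ac in all 4 lists, within 2 neighbouring regions that join when peaks within 1 kb are merged.

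At Utf1 a region over the start of the gene was called in all 4 lists. Its highest score was 10.4 in the control and with GW3965, 7.95 with LG268 and 4.85 with RA. The corresponding ranks were 8487 of 21418, 6908 of 17759, 5590 of 12472 and 11703 of 14958. A region 6.9 kb downstream (chromosome 7, 139950600 to 139950939) was called in the control, LG268 and RA with scores of 5.03, 5.94 and 3.72, and not with GW3965, a pattern of 1.34% of all regions. The control peak there was assigned to Mir202. The GW3965 list is the list with the RXR peak beside this region, at rank 741 of 940. The H3K27ac calls there ranked 16207 of 21418 in the control, 7861 of 12472 with LG268 and 13596 of 14958 with RA. A link between the missing call and the RXR peak was not tested.

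**Figure D2:**
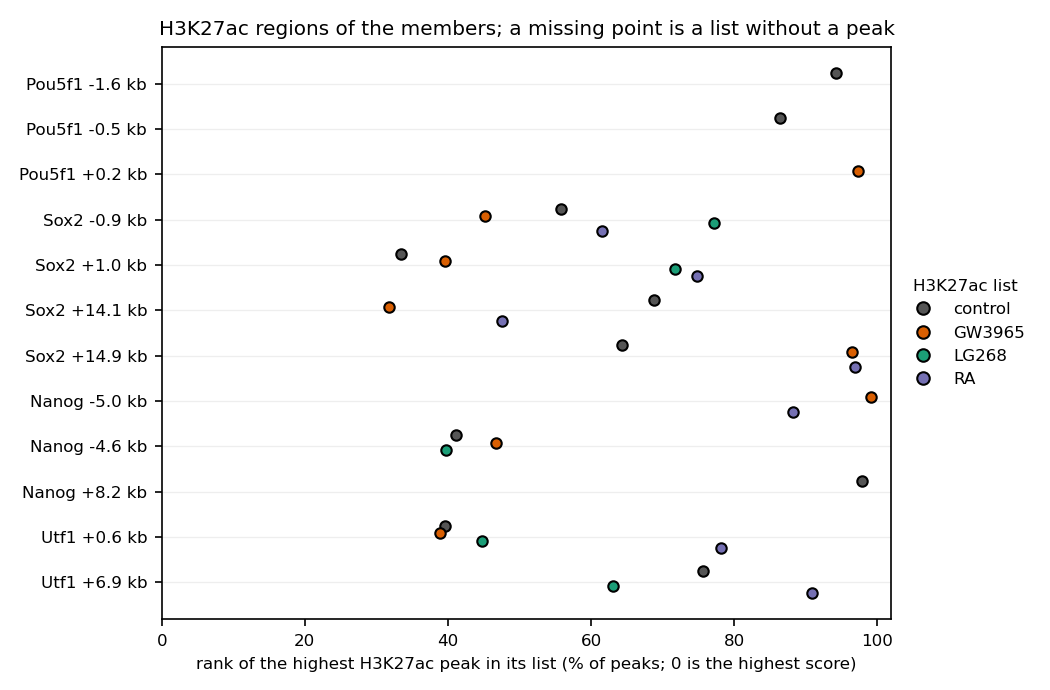
The rank of the highest H3K27ac peak, in percent of its list, is plotted for each of the 12 H3K27ac regions of the members, named by gene and distance of the region's centre from the TSS, with points coloured by list. Regions at Sox2 and Utf1 near the TSS have points in all 4 lists, while the 3 Pou5f1 regions have 1 point each, all at low rank.

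The RXR sites lay outside H3K27ac peaks, and those of Pou5f1, Utf1 and Sox2 lay within 5 kb of a control H3K27ac peak. Of the 4 sites, 0 overlapped an H3K27ac peak of the same treatment, against 18.2% of all GW3965 RXR peaks and 24.5% of all LG268 RXR peaks. A control H3K27ac peak was overlapped by 0 of the 4, against 19.7% and 33.7% of the peaks of these lists. Most RXR peaks of both lists thus also lay outside H3K27ac peaks. The median distance to a control H3K27ac peak was 8.94 kb over all GW3965 RXR peaks and 2.53 kb over all LG268 RXR peaks. The Pou5f1 site lay 113 bp from the control H3K27ac peak 1570 bp upstream of the TSS, and 1950 bp from the nearest GW3965 H3K27ac peak. The nearest H3K27ac peaks with RA and LG268 were 64.3 and 162.9 kb away.

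The Utf1 site lay 620 bp from the nearest H3K27ac peak of the control, 556 bp with LG268 and 531 bp with RA, and 4885 bp with GW3965. The Sox2 site lay 3369 bp from the nearest H3K27ac peak of the control, 3596 bp with GW3965 and 3283 bp with RA, and 17128 bp with LG268. At Pou5f1, Utf1 and Sox2, then, the H3K27ac region nearest to the RXR site was called in the control. It was not called in the treatment that gave the RXR peak. The control calls ranked 20200 (Pou5f1), 16207 (Utf1) and 13775 (Sox2) of 21418, in the longest H3K27ac list. With lists of equal length (the 12472 highest peaks of each) none of these regions was called in the control, so this difference was gone. Absence of a neighbouring region from the list of the same treatment was common, while its presence in the control was not counted over all peaks. Among GW3965 RXR peaks with a merged H3K27ac region within 5 kb and not overlapping, the region was not called with GW3965 for 105 of 256 (41.0%, exact 95% interval 34.9 to 47.3). For LG268 it was 297 of 444 (66.9%, 62.3 to 71.3).

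The Prdm14 site had no H3K27ac peak within 92 kb in any list. The nearest lay 92.5 kb away in the control, 92.7 kb with GW3965 and 92.2 kb with LG268, all at Slco5a1, and 249.2 kb away with RA. Over all GW3965 RXR peaks the median distance to an H3K27ac peak of the same treatment was 11.5 kb, and for LG268 15.0 kb.

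**Figure D3:**
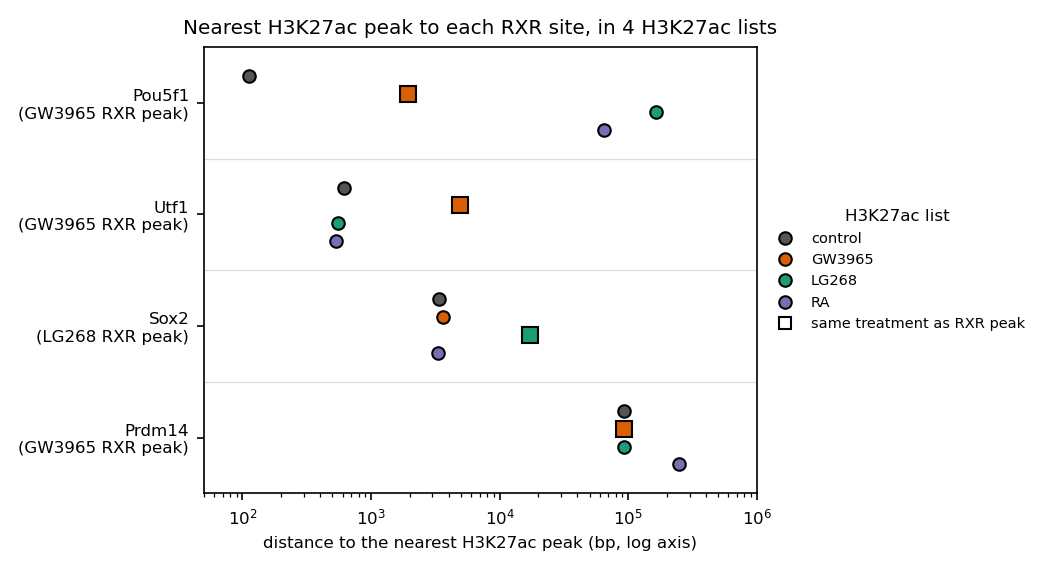
The distance in bp (log axis) from each of the 4 RXR sites to the nearest H3K27ac peak is plotted for the 4 H3K27ac lists, with squares for the treatment that gave the RXR peak. The Pou5f1 site is nearest to a control peak (113 bp), the Utf1 site lies within 620 bp of a peak in every list except GW3965 (4885 bp), and the Sox2 site within 3596 bp in every list except LG268 (17128 bp).

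**Figure D4:**
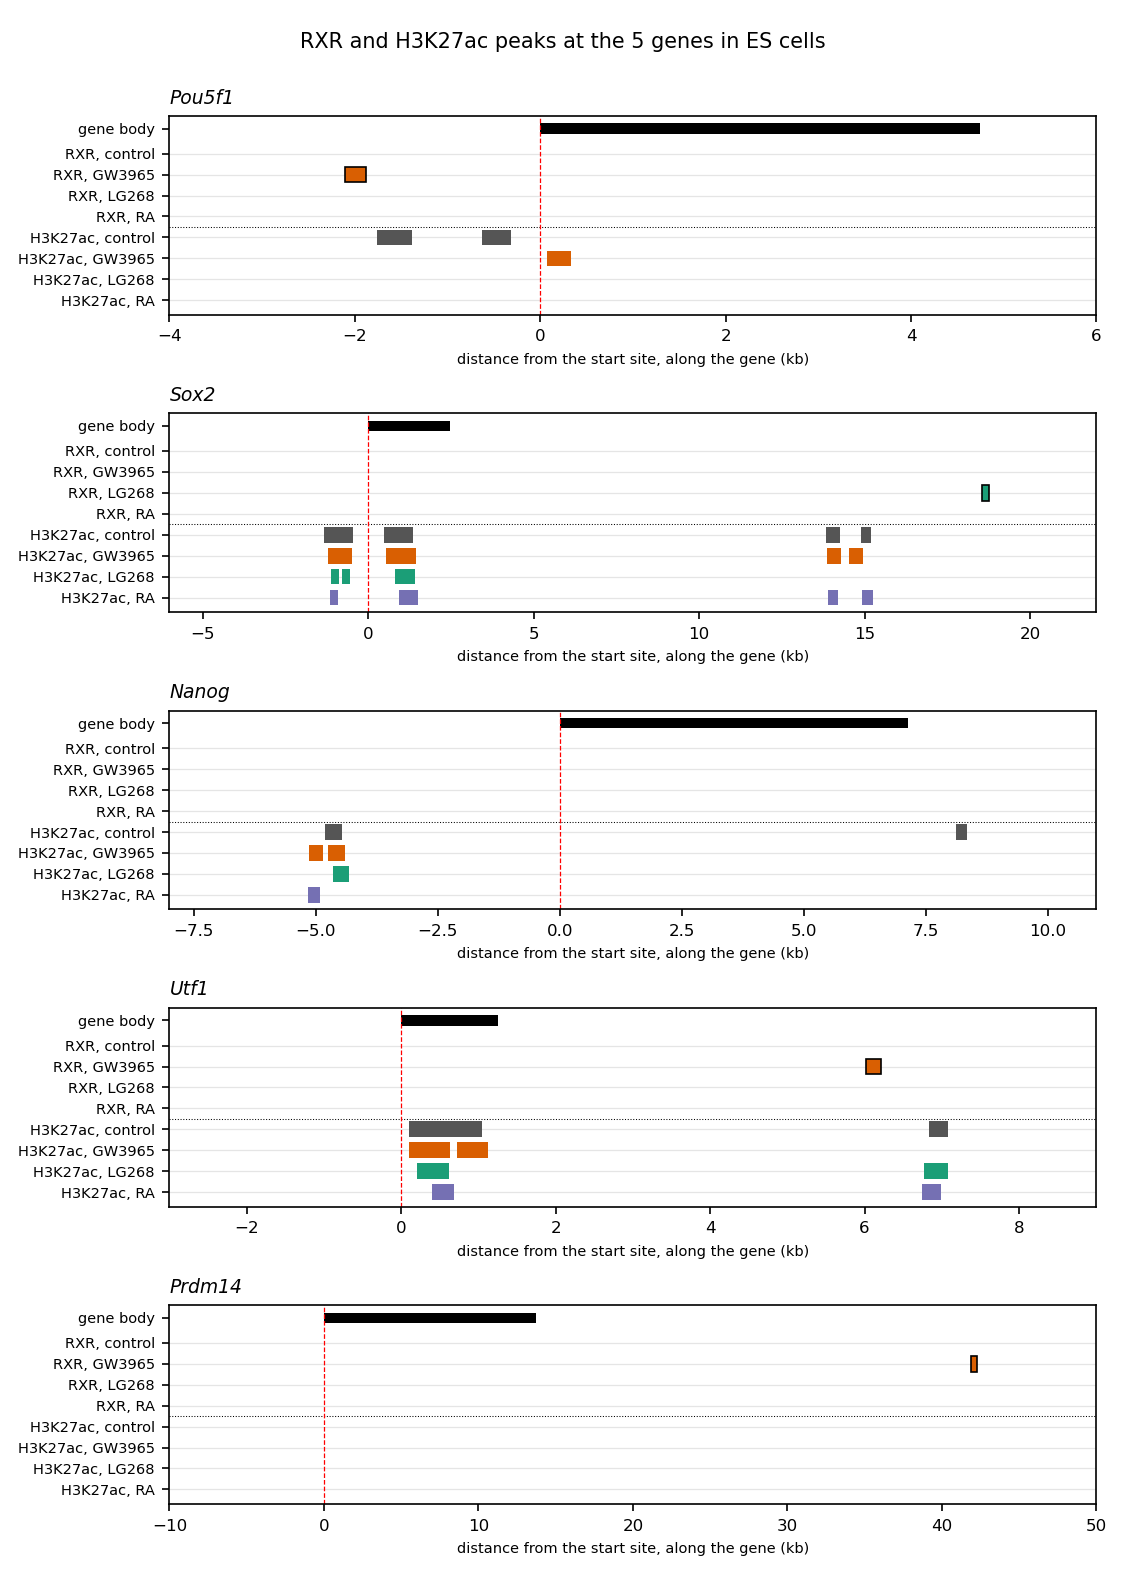
Peaks of the 4 ES RXR lists (upper rows, outlined) and 4 H3K27ac lists (lower rows) are drawn against the distance from the TSS in kb along each gene, with the gene body in black. RXR peaks appear with GW3965 at Pou5f1, Utf1 and Prdm14 and with LG268 at Sox2, each apart from the H3K27ac peaks, and the day 8 and day 16 lists held no peak at these genes.

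The other pluripotency genes examined were 30 genes of the naive network and its signals, of which 27 were the nearest gene of some peak. The GW3965 RXR list had a peak at 11 of the 30 (5.99% of all genes) and the control list at 1 (6.89%). LG268 had a peak at 2 (12.4% of all genes) and RA at 2 (11.9%). The day 8 replicates had a peak at 1 and 3 (6.31% and 10.8%), and the day 16 replicates at 0 (2.33% and 2.19%). Of the 30, 8 had the same pattern as Pou5f1, Utf1 and Prdm14 over the 8 RXR lists, a peak with GW3965 and none elsewhere: Klf2, Esrrb, Zfp42, Tbx3, Tfcp2l1, Lefty2, Fbxo15 and Lifr. With the members these were 11 of 35 genes, and 2.57% of all genes had this pattern. The list was chosen with this result known and the agreement is a description.

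Among these, Zfp42, a zinc finger gene that marks naive cells, had the highest GW3965 peak, with a score of 22.3 and rank 29 of 940, at 13.9 kb upstream of the TSS. Esrrb, an orphan nuclear receptor gene of the naive network, had its peak, of score 13.1 and rank 96, in intron 3 of 6. Klf2, a Krüppel-like factor gene, had 3 peaks, at 2.81 kb upstream and 15.4 and 35.4 kb downstream of the TSS, with ranks 138, 643 and 809. The peaks at Tfcp2l1 (rank 486), Tbx3 (662), Lefty2 (787) and Lifr (484), the leukemia inhibitory factor receptor gene, were lower. That of Fbxo15 (rank 803) was the only one of the 14 GW3965 peaks at the 30 other pluripotency genes within 1 kb of a TSS.

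The 14 GW3965 peaks at the other genes had a median score of 6.57, against 6.50 for the whole list, and a median rank of 459.5 of 940. Of these peaks 1, at Lefty2, overlapped an H3K27ac peak of the same treatment. Their median distance to such a peak was 10.6 kb, against 11.5 kb over the list. In score and in distance to H3K27ac their medians were thus close to those of the list as a whole.

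The remaining genes of the 30 with an RXR peak had other patterns. Tet2, a 5-methylcytosine dioxygenase gene, had a peak in intron 1 of 10 in all 4 ES lists and both day 8 replicates, with scores of 27.1 in the control, 10.9 with GW3965, 47.2 with LG268 and 20.3 with RA. Lefty1, a Nodal antagonist gene, had overlapping peaks with GW3965 (score 9.33, rank 229) and RA (3.28, rank 1848 of 1970). Klf4 had a GW3965 peak 265.8 kb upstream and a separate peak in day 8 replicate 2. Mycn had a peak with LG268 and Nr5a2 a peak in day 8 replicate 2, which leaves 17 of the 30 without any.

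**Figure D5:**
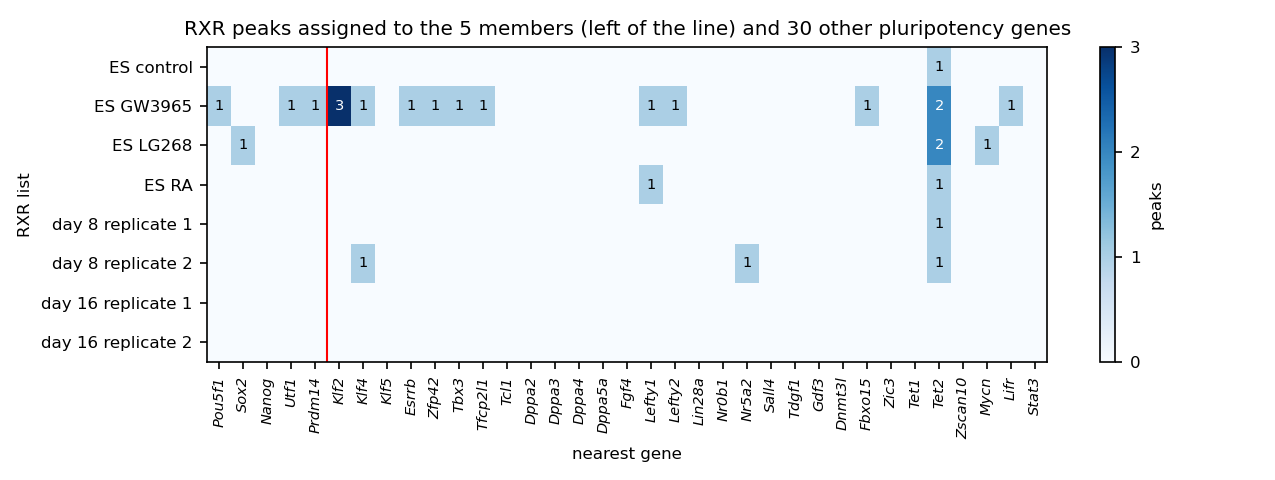
The number of RXR peaks assigned to each of the 5 members (left of the line) and the 30 other pluripotency genes is shown for the 8 RXR lists, with empty cells for 0. The GW3965 row has peaks at 14 of the 35 genes and the control row at Tet2.

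H3K27ac at promoters, with the peak centre within 1 kb of a TSS, was used to check the ES label. Of 10 pluripotency markers, 4 had a promoter peak in the control, 6 with GW3965, 3 with LG268 and 2 with RA. The shares of all 14490 genes with such a peak were 73.0%, 66.5%, 56.7% and 62.7% in the same order, so the pluripotency markers were below the background share in each list. Sox2 was not counted with RA, where its peaks near the TSS were centred 1037 bp upstream and 1214 bp downstream. Their edges did reach within 1 kb of the TSS. The promoters of Nanog, Prdm14 and Esrrb had no counted peak in any list. Of the 6 trophoblast markers 0 had one in any list, and of the 6 primitive endoderm markers 1 in each. Neural markers had 3, 2, 0 and 1 of 6 in the same order of lists, mesoderm markers 1, 0, 0 and 0 of 4, and fibroblast markers 1, 1, 0 and 0 of 4. These counts alone do not settle the label, and no H3K27ac list of day 8 or day 16 was analysed here. Of the 30 other pluripotency genes, 24 had an H3K27ac peak at any distance in the control (88.4% of all genes), 21 with GW3965 (80.7%), 13 with LG268 (65.3%) and 15 with RA (72.8%). Each of the 14490 genes had a peak in some list, while only 27 of the 30 did, so the 2 kinds of share are not fully alike.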

How the data were processed

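The 12 libraries, in 10 groups, were taken as deposited peak lists, 1 per library. Per the submitters' processing notes, BWA 0.6.0, HOMER 4.2 and MACS2 2.0.10 were used, with the builds mm9 and mm10 named without a role. Per the file headers, peaks were annotated against mm10. The score of each peak is the authors' deposited value on a scale not given in the sources used here. Distances to the TSS and nearest genes are deposited values too.

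Overlap means at least 1 bp. Distances to a TSS are from the centre of a peak or region, and other distances are bases between nearest edges. Regions are merged overlapping peaks. Members, gene lists and comparisons were chosen with earlier results of these data known. The named genes are all members and those of the 30 other pluripotency genes with an RXR peak. The TSS implied by the deposited distances matched GRCm38.p6 within 79 bp for all 5 genes. Interval functions were tested on simulated data, finding 300 of 300 planted overlaps. Promoters came from RefSeq. The planned motif search within RXR peaks was not run, since no genome sequence was used here. Scripts ran under Python 3.11.15 (pandas 2.3.3, numpy 2.4.6, matplotlib 3.10.9, scipy 1.17.1).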

Additional observations from a re-analysis of the deposited data

How the results depend on the processing

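Of 80 alternative values, 35 could not change a count of 0. Of the other 45, 28 stayed within 1.5 times the main value and 17 did not. The RXR peaks at Pou5f1 and Prdm14 passed a score threshold of 7.65 (the control list's median), which left 2 RXR sites of 4. The medians of the GW3965 and LG268 RXR lists were 6.50 and 6.82, so this threshold was stricter for them. At that threshold, in lists of equal length (the 940 highest peaks) and within 10 kb of the TSS, the LG268 list had 0 members with a peak in place of 1. Within 10 kb 2 sites were left. Without the GW3965 RXR list, an alternative added after the data were seen, 1 member had an RXR peak in place of 4. Leaving out a replicate of day 8 or day 16 could not change their 0 members with a peak. For H3K27ac, a score threshold of 8.22 (the control list's median) left 3 regions of 10 in the control and 5 of 8 with GW3965. It left 1 of 5 with LG268 and 0 of 7 with RA. List medians were 8.17 with GW3965, 7.32 with LG268 and 7.81 with RA. The threshold was therefore stricter for these lists, and the counts give no order between conditions. Lists of equal length (12472 peaks) left 4, 5 and 4 regions in the control, GW3965 and RA. Merging within 1 kb left 5 regions with GW3965. Regions called in 1 list fell from 4 to 2 at the threshold, to 1 with equal lengths and to 1 with merging within 1 kb. The count of 0 RXR sites in H3K27ac peaks was also 0 with the control H3K27ac list and with H3K27ac peaks of the same treatment within 1 kb. A 50% overlap could not change it. No paired analysis was possible because no result comes from a test, and the members had no peak at day 8 or day 16. Depth is unknown, so peaks low in their lists are the least certain.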

Other observations

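The RA RXR list held a peak 106.6 kb downstream of the Sox2 TSS, outside the members because its nearest gene is Gm3143 (chromosome 3, 34756541 to 34756713). It was chosen after its value was seen. It scored 5.14 and ranked 1503 of 1970. The nearest RXR peaks to Sox2 in the other lists lay 435.8 kb from the gene in the control and 1816 kb with GW3965, and the LG268 list had the site in the noncoding transcript described above. The nearest RXR peaks to Nanog, the member without a site, lay 211.8 kb away with LG268 and 211.7 kb with RA, both assigned to Rimklb. With GW3965 the nearest lay 365.1 kb away at Phc1, and in the control 1948 kb away at Lpcat3.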
